A study of Mus musculus with 12 samples.

Results

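Lysosomes are the acidic compartments in which dendritic cells (DCs) cut engulfed proteins into the peptides they show to T cells. The genes described here encode the machinery of that compartment: the cathepsins, which are mostly lysosomal proteases, the subunits of the vacuolar proton pump, and the lysosome-associated membrane proteins (LAMPs). They were chosen by symbol, as the protein-coding genes named Cts plus a letter, Atp6v, Atp6ap or Lamp plus a digit in the GENCODE mouse annotation. This gave 48 genes of the 57009 identifiers in the deposited count table: 18 cathepsins, 9 subunits of the membrane part of the pump (V0), 13 of its cytosolic part (V1), 3 accessory genes, 4 LAMPs, and Atp6v1fnb, which is named for lying next to a pump gene. Another 2 matching symbols, both copies of Atp6v0c annotated as pseudogenes, were left out.

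RNA was sequenced from splenic DCs of C57BL/6 mice that carried B16 tumours secreting Flt3 ligand, which expands DCs in vivo; all groups share this source. Spleen cells were depleted of T, B and NK cells and macrophages with beads, cultured for 3 h, and DCs were then sorted by CD11b and CD11c. The 4 groups of 3 libraries each were DCs alone (DC only), DCs with lipopolysaccharide (LPS), DCs with syngeneic B6 effector memory T cells (SynTem) and DCs with alloantigen-specific memory T cells from BALB/c mice (AlloTem). The T cells of the last 2 groups differed in strain as well as in specificity for the DCs, and these cannot be told apart. No label says that the replicates of a group came from separate mice or cultures, so the p-values here measure the spread between libraries. How much of that spread is technical is not known, and Y-linked transcripts, given below, differed between replicates.

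Cathepsins are made as inactive precursors and mature where the pH is low. The V-type proton pump sets that pH: the V1 part splits ATP in the cytosol and the V0 part carries protons across the membrane, with its large a subunit steering the pump to one membrane or another. In antigen-presenting cells, cathepsin S and related proteases also trim the invariant chain, the placeholder that occupies class II molecules until peptide is loaded. The transcription factors TFEB and TFE3 drive many lysosomal genes through a motif called CLEAR, whose core is an E-box.

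Total counts ran from 13903574 to 21861156 per library, and the 48 genes together took 0.411% to 0.6194% of them. All 11 markers of conventional DCs were detected in every library, with summed levels of 8230 to 16510 CPM (TMM-scaled reads per 1e6 counted reads). The class II pathway genes Cd74 (4820 to 9771 CPM) and H2-Ab1 (1988 to 4461 CPM) were the largest parts of this sum. Markers of plasmacytoid DCs summed to 1780 to 2510 CPM. T cell markers (12 of 12 detected) summed to 188.3 to 440.2 CPM in SynTem, 96.0 to 169.9 in AlloTem, 42.6 to 96.0 in LPS and 41.3 to 62.2 in DC only. The batch number deposited for a library equals its replicate number. Y-linked transcripts summed to 130.9 to 219.6 CPM in replicate 3 of each group and in SynTem 2, and to 0.0 to 10.3 CPM in the other 7 libraries. These transcripts thus went with the replicate number in all groups but SynTem. Xist went the other way, at 137.6 to 145.7 CPM in replicate 3 of DC only, LPS and AlloTem. It was 312.1 and 455.1 CPM in SynTem 2 and 3, and 610.0 to 1188 CPM in the other 7. DC only 1 and DC only 2 were the closest pair of replicates (chi-square per degree of freedom 5.82, with 24.1 to 73.0 in the 11 further pairs). Their counts were not within sampling noise, and each was kept as a library of its own.

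The promoters of the genes were searched first, because the CLEAR motif is the known common element of lysosomal genes. RefSeq windows on GRCm38.p6, from 250 bases before to 50 bases after a transcript start, were matched by symbol for 37 of the 48 genes (42 windows). The 11 genes without a window, which were not searched, included Ctse and Atp6v0a2, the genes called in AlloTem against DC only below. The E-box CACGTG, searched on both strands, lay in 9 of the 42 windows (21.4%) and in 7.15% of all 32851 windows. The longer CLEAR core TCACGTG, which contains that E-box, lay in 7 of the 42 (16.7%) and in 3.77% of all windows. The 7 genes were the pump subunits Atp6v0b, Atp6v0d1, Atp6v0e and Atp6v1a, the cathepsins Ctsa and Ctsd, and Lamp1. Some of these transcript starts lie inside the GENCODE gene, so not every site is upstream of it. All 26 bases printed for Atp6v0e, Ctsa and Ctsd lie in GENCODE exons of the gene, as do 2 of those for Atp6v0b. The bases printed for Atp6v1a lie within the gene but outside its exons. The sequences below show these sites on the strand of the gene, 5′ to 3′, with each E-box in capitals.

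Lamp1, chr8:13159085-13159160, plus strand: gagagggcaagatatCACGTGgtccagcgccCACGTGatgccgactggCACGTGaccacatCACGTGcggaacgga
Atp6v1a, chr16:44139370-44139405, minus strand: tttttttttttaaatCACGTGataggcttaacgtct
Atp6v0d1, chr8:105566052-105566077, minus strand: ctactgcggtCACGTGagacgcggtg
Atp6v0b, chr4:117887332-117887357, minus strand: gtcggcgcatCACGTGcgccggtcag
Atp6v0e, chr17:26676389-26676414, plus strand: gcgcgccgatCACGTGagcctctgtt
Ctsa, chr2:164833768-164833793, plus strand: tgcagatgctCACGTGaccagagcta
Ctsd, chr7:142387910-142387935, minus strand: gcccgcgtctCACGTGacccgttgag

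Lamp1 stood out in this set, with 4 E-boxes in the 76 bases that end at its start. Atp6v0b, Ctsa and Ctsd held 2 each, of which the one nearer the start is printed, and the others held 1. Ctsf and Ctsl carried the E-box without the longer core. The AP-1 motif TGANTCA lay in 1 of the 42 windows, against 7.81% of all windows, and that window belonged to Atp6v0a1, the gene with the largest log2 difference of the 32 between AlloTem and each other group. Its site, in capitals, is shown for that reason, and the bases printed lie within the GENCODE gene but outside its exons.

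Atp6v0a1, chr11:101010272-101010308, plus strand: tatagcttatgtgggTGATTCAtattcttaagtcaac

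The NF-kB motif GGGANTTCC lay in the windows of Atp6v0e2 and Ctso, against 1.68% of all windows. A match of letters describes the sequence only. Among tested genes with a window, the 7 with the CLEAR core had a median log2 difference of 0.11 between AlloTem and DC only (range -0.06 to 0.88), and the 16 without it a median of 0.20 (range -0.20 to 1.35). The order of these medians was not the same in every comparison. They were 0.10 with the core and 0.08 without it in LPS against DC only, 0.07 and 0.05 in SynTem against DC only, and 0.05 and 0.04 in AlloTem against SynTem, and the ranges of the 2 sets overlapped in each.

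Of the 48 genes 32 had enough counts to be tested: 13 cathepsins, 6 V0 and 9 V1 subunits, 2 accessory genes and 2 LAMPs. Another 9 had 0 counts in all 12 libraries, which allows up to 0.0141 CPM over the libraries together (3 counts, counting error only). They were Ctsj, Ctsm, Ctsq and Ctsr, cathepsins known from the mouse placenta, the pump subunits Atp6v1b1, Atp6v1e2 and Atp6v1g3, and Atp6v1fnb and Lamp5. The remaining 7 held 2 to 41 counts in all: Ctsk, the bone-resorbing protease of osteoclasts, 41, Atp6v0e2 12, Atp6v0a4 6, Atp6v0d2 5, Atp6v1c2 3, Atp6ap1l 2 and Lamp3 2. Lamp3, known in human cells as DC-LAMP, a marker of mature DCs, was thus almost without counts in these mouse libraries.

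Cathepsins spanned the widest range of levels. Per kilobase of exon, Ctss was the highest of the 32, at a mean of 352.7 CPM per kb over the 12 libraries, above 99.3% of all tested genes with a known length. Ctsz, a carboxypeptidase also called cathepsin X, followed at 323.1 CPM per kb, and the ranges of these 2 genes over the libraries overlapped. Ctsb came next among the cathepsins with 102.2 CPM per kb. Ctsh, an aminopeptidase, Ctsa, a carboxypeptidase that also protects other lysosomal enzymes, the aspartic protease Ctsd and Ctsc, which activates granule proteases, lay close together at 48.1 to 63.3 CPM per kb. Ctsl stood at 3.68 CPM per kb, and its range over the libraries lay wholly under that of Ctss. Ctso was at 3.55, Ctse at 2.69 and Ctsf at 0.105 CPM per kb.

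Of the 32 genes 15 lay above 90% of tested genes per kb, and the subunits that every proton pump needs were detected in each library. Among those subunits the mean level ran from 6.56 CPM per kb for Atp6v1h, the subunit that holds a detached V1 part silent, to 86.8 for Atp6v0c. In the V0 part, the ring proteins Atp6v0c and Atp6v0b had means of 86.8 and 70.9 CPM per kb, and Atp6v0d1, which joins the ring to the stalk, 65.0. In the V1 part, the stalk subunits Atp6v1g1 and Atp6v1f had 62.6 and 47.4 CPM per kb, and the ATP-splitting pair Atp6v1b2 and Atp6v1a 33.5 and 18.0. In several subunits with more than 1 gene, 1 copy held most of the counts. Atp6v0d1 held 24595 counts and its relative Atp6v0d2 5, Atp6v1b2 held 37620 and Atp6v1b1 0, Atp6v1g1 held 15196 and Atp6v1g2 484. Likewise Atp6v0e held 24722 and Atp6v0e2 12, Atp6v1c1 held 11785 and Atp6v1c2 3, and Atp6v1e1 held 15120 and Atp6v1e2 0. The accessory genes Atp6ap2, also known as the prorenin receptor, and Atp6ap1 had 71.1 and 52.2 CPM per kb. Lamp1 was at 129.8 CPM per kb and Lamp2, which also serves chaperone-mediated autophagy, at 19.9.

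**Figure D1:**
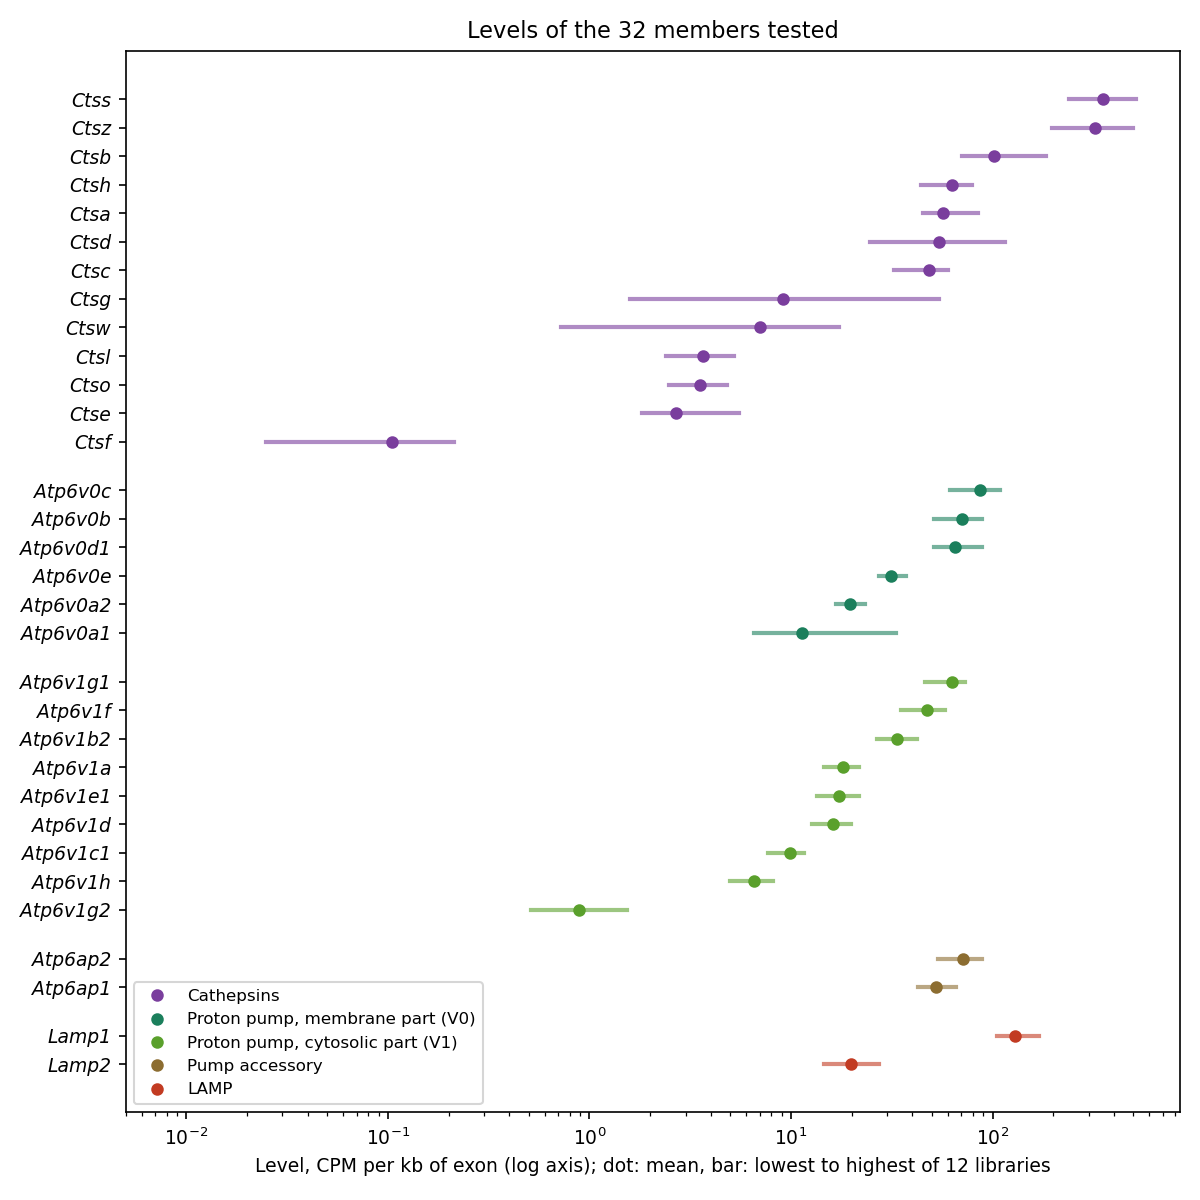
Levels of the 32 tested genes in CPM per kb of exon on a log axis, with a dot for the mean and a bar from the lowest to the highest of the 12 libraries, coloured by role. Ctss and Ctsz lie highest, most pump subunits have short bars, and Ctsg and Ctsw have the longest bars.

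The levels varied little for most of the genes. The highest library exceeded the lowest by under 2-fold for 21 of the 32, and the median ratio was 1.78, against 1.91 over all tested genes. Ctsg (34.3-fold), Ctsw (23.8-fold), Ctsf (8.53-fold, at 0.125 to 1.07 CPM), Atp6v0a1 (5.06-fold) and Ctsd (4.68-fold) varied most. The sum over the 18 cathepsins was 2448 ± 400.2 CPM in DC only, 2634 ± 619.4 in LPS, 2593 ± 900.6 in SynTem and 2708 ± 773.3 in AlloTem (SD, n = 3 each). The sum over the V0 subunits was 843.2 ± 54.0, 897.9 ± 99.5, 819.5 ± 123.2 and 953.4 ± 141.5 CPM in the same order, and over the V1 subunits 656.6 ± 62.5, 679.7 ± 85.3, 651.3 ± 107.3 and 711.6 ± 90.5 CPM. The groups overlapped in each of these sums.

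The comparison of AlloTem with DC only set DCs sorted after culture with alloreactive memory T cells beside DCs cultured alone. Ctse rose and Atp6v0a2 fell (edgeR, Benjamini-Hochberg adjustment over all genes, adjusted p under 0.05), and 30 of the 32 did not pass. These 2 genes of 32 compare with 1.76% of the 14413 genes tested, 1.35% higher and 0.409% lower. At an unadjusted p under 0.05 there were 5 (15.6% of the 32, against 12.7% of all genes), and DESeq2 called 3, against 4.7% of all genes. The count was 0 with voom, with no filter or with only the 2 groups compared, and 0 to 1 with any single library left out. The median log2 difference over the 32 was 0.14, against 0.00 over all genes, and was 0.06 without AlloTem 1 and 0.28 without AlloTem 3.

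Atp6v0a1 encodes the a1 form of the large V0 subunit, best known from the pump of synaptic vesicles. It lies on chromosome 11 from 101009452 to 101063719 (GRCm38, plus strand; ENSMUSG00000019302). Its levels were 98.4, 218.0 and 100.04 CPM in AlloTem 1 to 3. They were 52.8, 52.4 and 58.1 CPM in DC only, 48.5, 45.5 and 62.8 in LPS, and 43.1, 47.4 and 68.2 in SynTem. All 3 AlloTem libraries lay above the other 9, and AlloTem 2 lay far above the rest. The difference from DC only was 2.55-fold (log2 1.35 ± 0.30 SE, 95% interval 0.69 to 2.01, edgeR adjusted p = 0.0519), from LPS 2.65-fold (log2 1.41 ± 0.30, edgeR adjusted p = 0.0816) and from SynTem 2.62-fold (log2 1.39 ± 0.30, edgeR adjusted p = 0.115). It missed the threshold in each comparison as fitted by edgeR with the main filter, while DESeq2 called it in all 3 (DESeq2 adjusted p = 0.000507, 0.000477 and 0.000802). Without AlloTem 2 the log2 difference from DC only was 0.86 (edgeR adjusted p = 0.098), and without AlloTem 3 it was 1.55 and passed (edgeR adjusted p = 0.0326). With genes kept by a mean of at least 5 CPM, Atp6v0a1 also passed (edgeR adjusted p = 0.0495), while Atp6v0a2 no longer did (edgeR adjusted p = 0.0519). Within replicate numbers 1, 2 and 3 the log2 ratio of AlloTem to SynTem was 1.18, 2.19 and 0.55.

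Ctse encodes cathepsin E, an aspartic protease of the endosomes of antigen-presenting cells. It lies on chromosome 1 from 131638306 to 131675505 (plus strand; ENSMUSG00000004552). Its levels were 17.6, 9.18 and 12.6 CPM in AlloTem, 6.76, 5.77 and 6.22 in DC only, 7.73, 7.0 and 8.91 in LPS, and 7.88, 6.97 and 5.75 in SynTem. Again the 3 AlloTem libraries lay above the other 9, although AlloTem 2 exceeded LPS 3 only narrowly. The rise over DC only was 2.1-fold (log2 1.07 ± 0.23, edgeR adjusted p = 0.047). Against SynTem the log2 difference was 0.93 ± 0.23 (edgeR adjusted p = 0.16) and against LPS 0.73 ± 0.23 (edgeR adjusted p = 0.343). Of the 12 fits that left out 1 library, only the one without AlloTem 2 kept the call against DC only (edgeR adjusted p = 0.0287), and without AlloTem 1 the log2 difference was 0.80 (edgeR adjusted p = 0.147).

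Atp6v0a2 encodes the a2 form of the same V0 subunit, known from the Golgi and early endosomes. It lies on chromosome 5 from 124628576 to 124724455 (plus strand; ENSMUSG00000038023), and 9.86% of its exon bases overlap a gene on the other strand. Its levels were 120.1, 112.4 and 118.2 CPM in AlloTem, 149.6, 157.3 and 142.3 in DC only, 123.1, 133.3 and 131.3 in LPS, and 132.8, 139.0 and 121.8 in SynTem. The AlloTem libraries were the lowest of the 12, though close to LPS 1 and SynTem 3, and DC only held the 3 highest. The fall against DC only was small, 1.28-fold (log2 -0.36 ± 0.08, edgeR adjusted p = 0.0486). The log2 difference from DC only was -0.21 ± 0.08 in LPS (edgeR adjusted p = 0.999) and -0.19 ± 0.08 in SynTem (edgeR adjusted p = 0.528), and neither passed. With any 1 of the 12 libraries left out the call was lost (edgeR adjusted p = 0.0568 to 0.214).

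**Figure D2:**
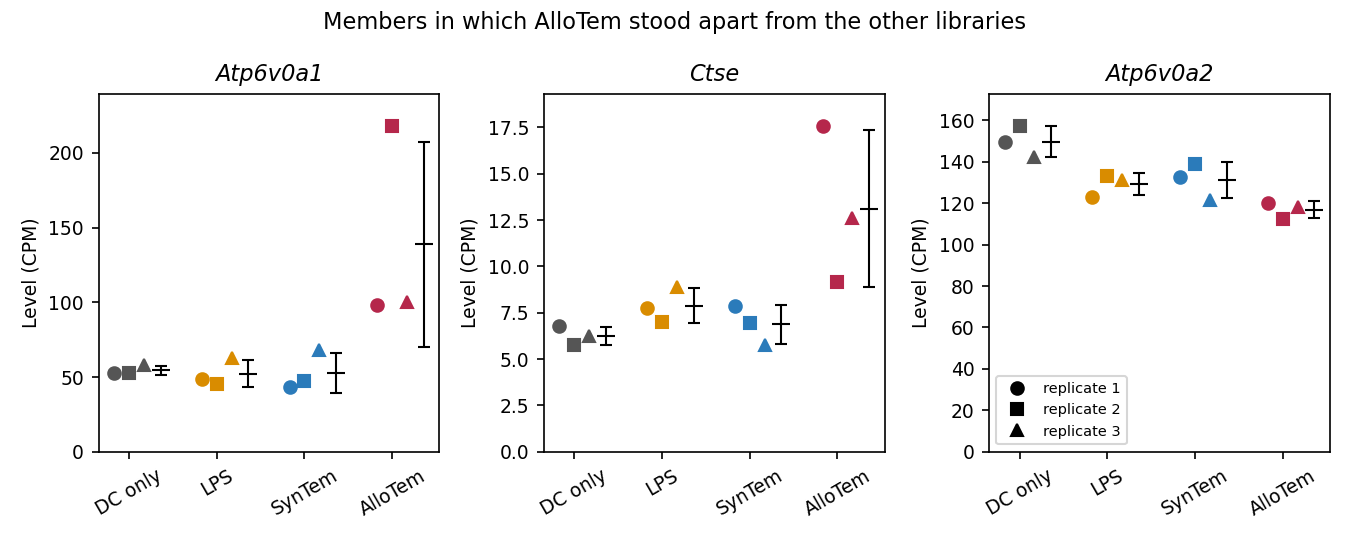
CPM of Atp6v0a1, Ctse and Atp6v0a2 in each library by group, with symbols for the replicate number and the mean ± SD beside them (n = 3); the axes start at 0. AlloTem lies above the other groups for Atp6v0a1, with 1 library at 218.0 CPM, and for Ctse, and slightly below them for Atp6v0a2.

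These 3 were the only genes of the 32 in which AlloTem did not overlap the other 9 libraries: 2 were above, where 1.85% of all tested genes were, and 1 below, against 0.826%. The a1 and a2 genes encode alternative forms of 1 subunit, and another form, a3, is encoded by Tcirg1, which the naming rule does not take in. Among the 3 forms, a1 made up 19.4%, 34.2% and 15.8% of the summed level per kb in AlloTem 1 to 3, and 8.68% to 11.9% in the other 9 libraries. The form a3 took the largest share in each library, from 48.7% to 70.0%. The ratio of Atp6v0a1 to Atp6v0a2 in CPM was 0.819, 1.94 and 0.846 in AlloTem and 0.325 to 0.56 elsewhere. With Atp6v0a1 above and Atp6v0a2 below all other libraries in AlloTem, this ratio had to separate AlloTem and is no further evidence. The share of a1 rests on the same values. No other V0 gene differed as much: the log2 differences of Atp6v0b, Atp6v0c, Atp6v0d1 and Atp6v0e between AlloTem and DC only lay between -0.05 and 0.21.

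Markers of mature DCs (8 of 8 detected) moved partly with Atp6v0a1, and their part in the result was not tested. They summed to 3245, 4268 and 1291 CPM in AlloTem, 2429, 2934 and 1489 in LPS, 2007, 790.9 and 783.0 in SynTem and 1350, 1319 and 800.1 in DC only. The library highest in Atp6v0a1, AlloTem 2, was also the highest in these markers. LPS 2, with 2934 CPM of the markers, had 45.5 CPM of Atp6v0a1. T cell markers were highest in SynTem, with Atp6v0a1 at 43.1 to 68.2 CPM there, and the part of T cell RNA was not tested either. In sorted bulk libraries, fewer cells of a type and less RNA per cell cannot be told apart.

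The comparison of AlloTem with SynTem set alloreactive beside syngeneic T cells, and none of the 32 genes passed (edgeR; 0.167% of all genes did; 4 at an unadjusted p under 0.05, or 12.5%, against 9.58%). All 4 differences were positive: Atp6v0a1, Ctse, Atp6v1g1 and Ctsz. DESeq2 called Atp6v0a1 and Ctse (2.21% of all genes), and voom none. Atp6v1g1, a V1 stalk subunit, was 80.3, 81.2 and 66.0 CPM in AlloTem and 58.9, 52.4 and 63.4 in SynTem (log2 0.38 ± 0.14, edgeR adjusted p = 0.377). In DC only it was 82.7, 73.6 and 61.1 CPM, so AlloTem overlapped unstimulated cells (log2 0.07 ± 0.14, 95% interval -0.23 to 0.37). Ctsz was 592.1, 720.0 and 377.3 CPM in AlloTem and 454.4, 284.3 and 356.3 in SynTem, where the groups overlapped (log2 0.63 ± 0.26, edgeR adjusted p = 0.476). The median log2 difference was 0.05 over the 32 and -0.01 over all genes. Single libraries set its size and sign: it was 0.24 without SynTem 1, 0.21 without AlloTem 3, -0.04 without SynTem 2 and -0.02 without AlloTem 1. Of the V1 subunits 8 of 9 had a positive difference (median log2 0.16), and of the V0 subunits 5 of 6 (median 0.09), against 48.5% of all genes. Within replicate numbers 1, 2 and 3 the positive V1 subunits were 5, 8 and 3 of 9, and the V0 subunits 3, 5 and 3 of 6, with the highest counts in replicate 2.

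Against LPS, again none of the 32 passed (edgeR; 0.451% of all genes; 3 at an unadjusted p under 0.05, or 9.38%, against 6.5%). The 3 were Atp6v0a1, Ctse and Ctsl, and DESeq2 called Atp6v0a1 alone (2.04% of all genes). Ctsl, the cysteine protease that trims invariant chain in thymic epithelium, was 33.9, 26.5 and 29.1 CPM in AlloTem, 23.2, 15.5 and 23.1 in LPS, 23.2, 21.4 and 17.05 in DC only and 24.3, 18.5 and 30.5 in SynTem. SynTem 3 lay above AlloTem 2 and 3. The log2 difference was 0.53 ± 0.21 from LPS (edgeR adjusted p = 0.638) and 0.54 ± 0.21 from DC only (edgeR adjusted p = 0.317). Part of the exon bases of Ctsl (26.8%) overlaps Gm47123 on the other strand, and the strand setting of the counts is not given in the sources used here.

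Neither LPS nor syngeneic T cells gave a call among the 32 genes against DC only. For LPS against DC only none of the 32 passed by edgeR, as for all genes (0.0%), nor by DESeq2 (0.0696% of all genes). A single gene, Atp6v0a2, had an unadjusted p under 0.05 (3.12% of the 32, against 3.68%), the median log2 difference was 0.09, and 25 of the 32 were positive. Within replicate numbers 1, 2 and 3 the positive genes were 27, 15 and 20 of 32, against 51.0%, 48.0% and 50.5% of all genes. Without LPS 1 the median over the 32 was -0.03. For SynTem against DC only none passed by edgeR (0.0902% of all genes) or DESeq2 (1.77%), and Atp6v0a2 and Atp6v1g1 had an unadjusted p under 0.05 (6.25%, against 8.24%). The median log2 difference there was 0.06, and -0.13 without SynTem 1. A further 3 of the 32, Ctsd, Ctsw and Ctsg, differed by over 2-fold without passing. Ctsd, the lysosomal aspartic protease, was 200.8, 138.5 and 151.1 CPM in SynTem and 87.3, 93.2 and 61.9 in DC only. Its difference was 2.02-fold (log2 1.02 ± 0.54, 95% interval -0.19 to 2.22, edgeR adjusted p = 0.665), and SynTem was higher at each of the 3 replicate numbers. A missing call with these intervals does not show that the genes were alike in the groups. Atp6v1f, another V1 subunit, was 60.3, 54.6 and 47.5 CPM in LPS and 57.6, 61.5 and 49.9 in AlloTem, against 50.1, 37.5 and 46.3 in DC only and 51.1, 42.4 and 46.2 in SynTem. Its log2 difference from DC only was 0.28 in LPS (edgeR adjusted p = 0.999) and 0.34 ± 0.14 in AlloTem (edgeR adjusted p = 0.323), with LPS 3 and AlloTem 3 below DC only 1. Ctse differed between LPS and DC only by 0.33 ± 0.23 on the log2 scale (edgeR adjusted p = 0.999).

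The groups in which DCs met LPS or alloreactive T cells were also set jointly against DC only and SynTem. None of the 32 passed by edgeR (0.132% of all genes), DESeq2 called Ctse (1.95% of all genes), and 6 had an unadjusted p under 0.05 (18.8%, against 10.4%). The log2 differences were 0.63 ± 0.16 for Ctse, 0.67 ± 0.21 for Atp6v0a1 and -0.19 ± 0.06 for Atp6v0a2 (edgeR adjusted p = 0.197, 0.289 and 0.262). The median was 0.09 over the 32 and 0.00 over all genes. These comparisons share libraries, so their values are not independent of one another.

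**Figure D3:**
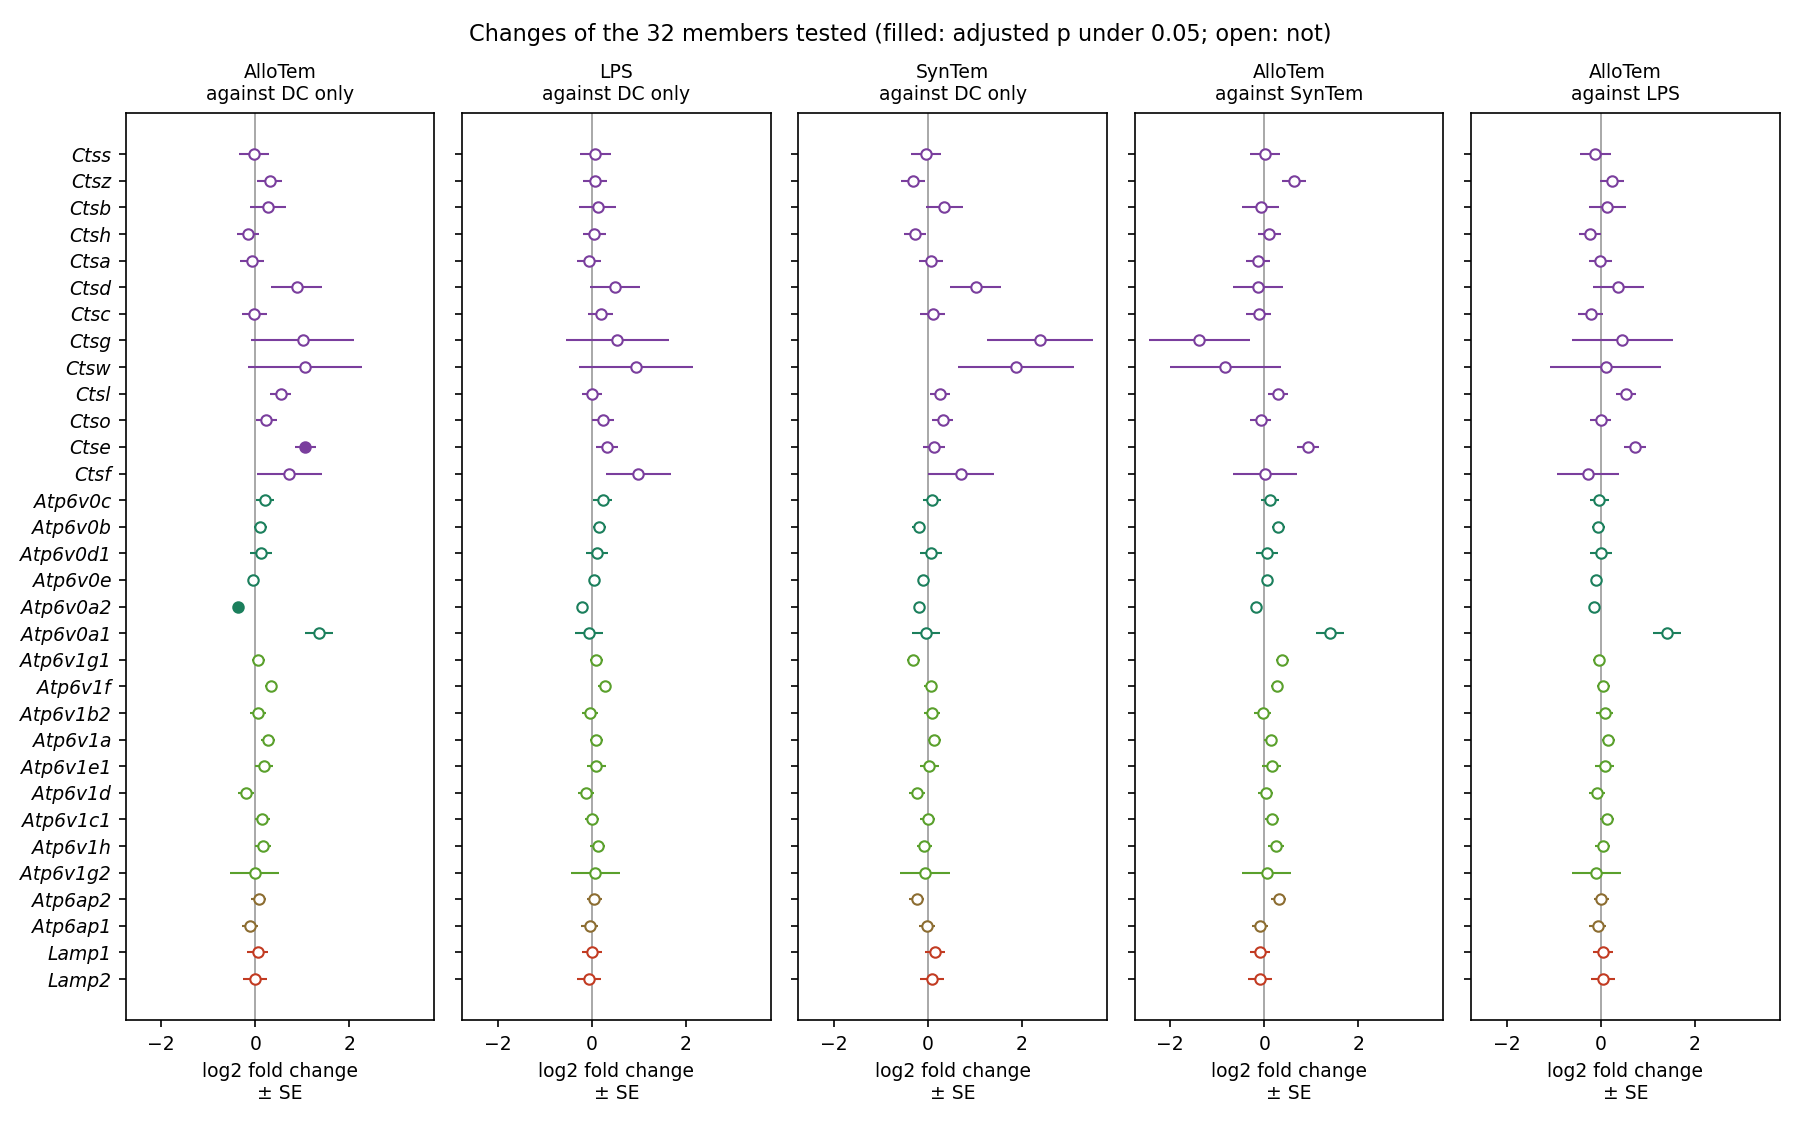
Log2 fold changes ± SE of the 32 tested genes in 5 comparisons (edgeR, 3 libraries a group), ordered by role and level; filled points have an adjusted p under 0.05. The filled points are Ctse and Atp6v0a2 in AlloTem against DC only, Atp6v0a1 lies near 1.4 in the 3 AlloTem panels, and Ctsg and Ctsw have the widest bars.

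Cathepsins that act on class II molecules or their invariant chain were taken as a group of 8: Ctss, Ctsl, Ctsb, Ctsd, Ctsh, Ctsf, Ctsz and Ctse. Together they summed to 2785, 2139 and 1519 CPM in AlloTem, 2838, 1413 and 1638 in SynTem, 2559, 1962 and 1583 in LPS and 2084, 2049 and 1523 in DC only. The spread between replicates of a group exceeded the differences between groups. Only Ctse passed, in AlloTem against DC only, and 6 of the 8 were positive there, with a median log2 difference of 0.42 (50.2% of all genes were positive, with a median of 0.00). Within replicate numbers 1, 2 and 3 the positive genes were 7, 4 and 4 of 8. The log2 ratio of Ctsb was 0.79 in replicate 1, -0.18 in replicate 2 and -0.04 in replicate 3, and AlloTem 1 was also high in the macrophage markers given below.

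Ctss, the main protease of invariant chain in DCs, was 569.0, 496.8 and 341.1 CPM in AlloTem, 701.3, 324.4 and 365.3 in SynTem, 636.2, 537.0 and 344.0 in LPS and 529.3, 529.6 and 373.3 in DC only. All 4 groups overlapped, with replicate 3 low in each and SynTem 2 lowest of all. Its log2 difference between AlloTem and DC only was -0.03 ± 0.32 (95% interval -0.74 to 0.69) and between LPS and DC only 0.08 ± 0.32 (95% interval -0.63 to 0.80). Both intervals reach to either side of 0, which does not show that Ctss was the same in these groups. For Ctsh the log2 difference between AlloTem and DC only was -0.16 ± 0.24, for Ctsz 0.30 ± 0.26, for Ctsb 0.27 ± 0.39 and for Ctsd 0.88 ± 0.54 (edgeR adjusted p = 0.865, 0.727, 0.863 and 0.582). Ctsh was 317.0, 295.3 and 198.9 CPM in AlloTem, 333.8, 210.4 and 207.3 in SynTem, 356.2, 346.3 and 243.8 in LPS and 331.7, 323.5 and 252.3 in DC only. Ctsz was 536.8, 492.0 and 339.1 CPM in DC only and 515.9, 519.8 and 399.2 in LPS, and AlloTem overlapped both. Ctsf, a protease known to replace Ctss in macrophages, was at 1.07 CPM or less in every library. Of the 12 partners of the class II pathway listed, such as Cd74 (the invariant chain), the H2-DM genes and Ifi30, none passed in any of the comparisons by edgeR. All 12 were positive in AlloTem against SynTem (median log2 0.26, none at an unadjusted p under 0.05), where 48.5% of all genes were. Against LPS 3 of 12 were positive (median -0.11), where 48.9% of all genes were. The direction against SynTem came from replicates 2 and 3, where all 12 were positive, while in replicate 1 only 1 of 12 was.

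Some cathepsins moved with markers of cells other than DCs. Ctsw, a cathepsin of cytotoxic lymphocytes, was 31.1 CPM in LPS 1, 32.6 in AlloTem 1 and 22.2, 23.2 and 22.3 in SynTem 1 to 3. In DC only it was 8.39, 8.74 and 1.37 CPM, in LPS 2 and 3 2.14 and 2.3, and in AlloTem 2 and 3 3.37 and 2.12. Markers of cytotoxic T and NK cells (8 of 8 detected) summed to 1178 CPM in LPS 1, 1181 in AlloTem 1 and 808.7 in SynTem 1, and to 80.0 to 334.4 CPM in the other 9 libraries, with 321.5 and 334.4 in SynTem 2 and 3. The libraries highest in the marker sum were thus also high in Ctsw, and SynTem 2 and 3 were near SynTem 1 in Ctsw with a lower sum. This did not hold for each marker. Gzmb was 134.9 and 119.5 CPM in SynTem 2 and 3, against 113.3 in AlloTem 1, 71.6 in LPS 1 and 48.7 in SynTem 1. The log2 difference of Ctsw was 1.88 ± 1.23 between SynTem and DC only and 1.05 ± 1.21 between AlloTem and DC only (edgeR adjusted p = 0.748 and 0.817). The part of those cells in these values was not tested.

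Ctsg, a serine protease of neutrophil granules, was 56.0 CPM in SynTem 3 and between 1.64 and 10.5 CPM in the other 11 libraries. Neutrophil markers (9 of 9 detected in at least 1 library) summed to 926.5 CPM in SynTem 3 and 32.5 to 270.4 CPM elsewhere. Mpo and Elane, granule genes of neutrophil precursors, were 564.8 and 131.4 CPM in SynTem 3, and Mpo was the largest part of the sum. They were at most 73.5 and 13.8 CPM in any other library. S100a8 and Retnlg were also highest in SynTem 3, at 49.1 and 8.77 CPM. S100a9, Ngp, Ltf and Camp, at 66.2, 60.5, 34.9 and 10.7 CPM there, were higher in LPS 1, at 70.0, 68.0, 39.3 and 13.6 CPM. Ctsg was 3.64 CPM in LPS 1, and Ly6g was 0.1 CPM in SynTem 3. The log2 difference of Ctsg between SynTem and DC only was 2.39 ± 1.12 (edgeR adjusted p = 0.615), and without SynTem 3 it was -0.53, so that 1 library set its direction.

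Ctsb, a protease of broad action and among the most abundant cathepsins, was 809.9 CPM in LPS 1, 1115 in SynTem 1 and 983.3 in AlloTem 1, against 429.3 to 582.9 CPM in the other 9 libraries. Ctsd was 209.2, 200.8 and 271.6 CPM in the same 3 libraries, 138.5 and 151.1 in SynTem 2 and 3, and 58.1 to 99.4 in the other 7. Of the splenic macrophage markers (10 of 10 detected in at least 1 library) the sum was 130.1, 195.0 and 177.9 CPM in LPS 1, SynTem 1 and AlloTem 1 and 36.7 to 82.1 CPM in the rest. Adgre1 was the largest part of it, with 61.5, 117.3 and 100.2 CPM, and Hmox1 followed with 42.4, 48.2 and 48.3, while the complement genes C1qa, C1qb and C1qc, which define many tissue macrophages, were each at 1.2 CPM or less in those 3 libraries. Itgam, which encodes the CD11b used for the sort, was 329.2, 350.7 and 308.1 CPM in them and 148.2 to 199.4 CPM in the other 9. DC only 1 carries the same replicate number and was not among them, with 568.9 CPM of Ctsb and 195.7 CPM of Itgam. The part of these cells in the levels of Ctsb and Ctsd was not tested. Of the exon bases of Ctsd 34.4% are shared with Gm49369 on the same strand, and 12.8% of those of Ctsb with Fdft1 on the other strand, so these counts are uncertain to that extent.

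**Figure D4:**
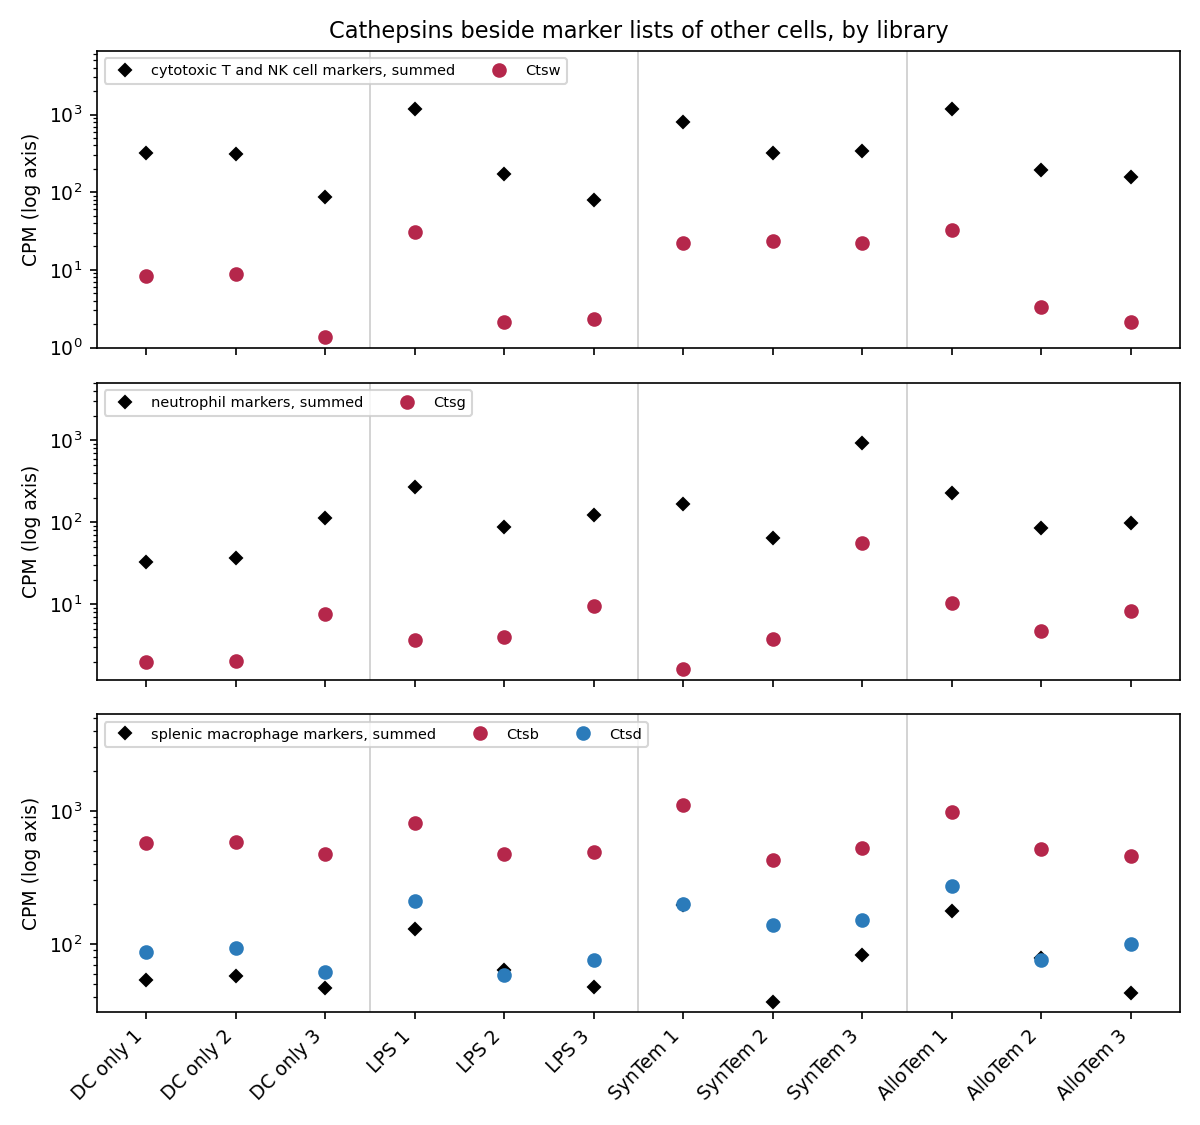
CPM of Ctsw, Ctsg, Ctsb and Ctsd (circles) and the summed CPM of marker lists of cytotoxic T and NK cells, neutrophils and splenic macrophages (black diamonds) in each of the 12 libraries, on log axes. LPS 1, SynTem 1 and AlloTem 1 are high in the top and bottom panels, and SynTem 3 is the highest in the middle one.

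Most of these genes shared a pattern across replicate numbers. In 21 of the 32 genes (65.6%) replicate 1 was above replicate 3 in each of the 4 groups, where 20.3% of all tested genes were. The reverse held for 2 of the 32 (6.25%), Atp6v0a1 and Atp6v1g2, against 21.3% of all genes. The 21 included 7 of 13 cathepsins, 4 of 6 V0 and 6 of 9 V1 subunits, both accessory genes and both LAMPs. The median log2 ratio of replicate 3 to replicate 1 over the 32 was -0.25 in DC only, -0.40 in LPS, -0.28 in SynTem and -0.42 in AlloTem, and between 0.00 and 0.02 over all tested genes.

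Lamp1 and Lamp2 are the main glycoproteins of the lysosomal membrane. Lamp1 was 338.3, 378.6 and 288.0 CPM in DC only 1 to 3, 416.7, 281.6 and 309.9 in LPS, 453.0, 292.6 and 367.0 in SynTem and 444.2, 291.0 and 305.2 in AlloTem. Replicate 1 exceeded replicate 3 in each group, while the groups overlapped throughout. Lamp2 was 196.9, 220.3 and 149.2 CPM in DC only, 223.9, 179.4 and 143.6 in LPS, 262.3, 139.3 and 201.4 in SynTem and 227.7, 188.2 and 150.04 in AlloTem. The log2 difference of Lamp1 was 0.05 ± 0.22 between AlloTem and DC only (95% interval -0.42 to 0.52), -0.10 ± 0.22 between AlloTem and SynTem and 0.15 ± 0.22 between SynTem and DC only. That of Lamp2 was -0.05 ± 0.25 between LPS and DC only (95% interval -0.61 to 0.51). The accessory gene Atp6ap2 was 198.7, 202.1 and 165.8 CPM in DC only, 214.4, 196.0 and 179.5 in LPS, 193.4, 148.0 and 140.0 in SynTem and 200.9, 232.3 and 161.6 in AlloTem. Atp6ap1 was 167.8, 165.6 and 154.4 CPM in DC only, 189.0, 148.9 and 136.2 in LPS, 199.6, 136.8 and 144.6 in SynTem and 181.5, 129.2 and 142.7 in AlloTem. In both genes the groups overlapped and replicate 1 again lay above replicate 3. Lamp2, Atp6ap1 and Atp6ap2 lie on the X chromosome, and the other 29 tested genes do not.

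A test of the replicate number over the 12 libraries gave 20 of the 32 an unadjusted p under 0.05 (62.5%, against 27.4% of all genes), led by Ctsa, Ctsh and Atp6v0d1. By edgeR none of the 32 passed the adjustment, as no gene did (0.0%; smallest adjusted p among the 32 = 0.0686), while DESeq2 called 13 (16.3% of all genes). An alternative chosen after seeing the data left out DC only 2 and SynTem 2. Their Y-linked transcripts or likeness to another replicate set them apart from their number, so leaving them out favours a larger count. In that fit edgeR called 19 of the 32, against 20.9% of all genes. Ctss, Ctsh, Atp6v0d1 and Ctsa had the smallest values there (edgeR adjusted p = 0.00211, 0.00289, 0.00394 and 0.00395). What a batch was is not stated, and the replicate number, the Y-linked transcripts and any technical difference cannot be told apart.

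**Figure D5:**
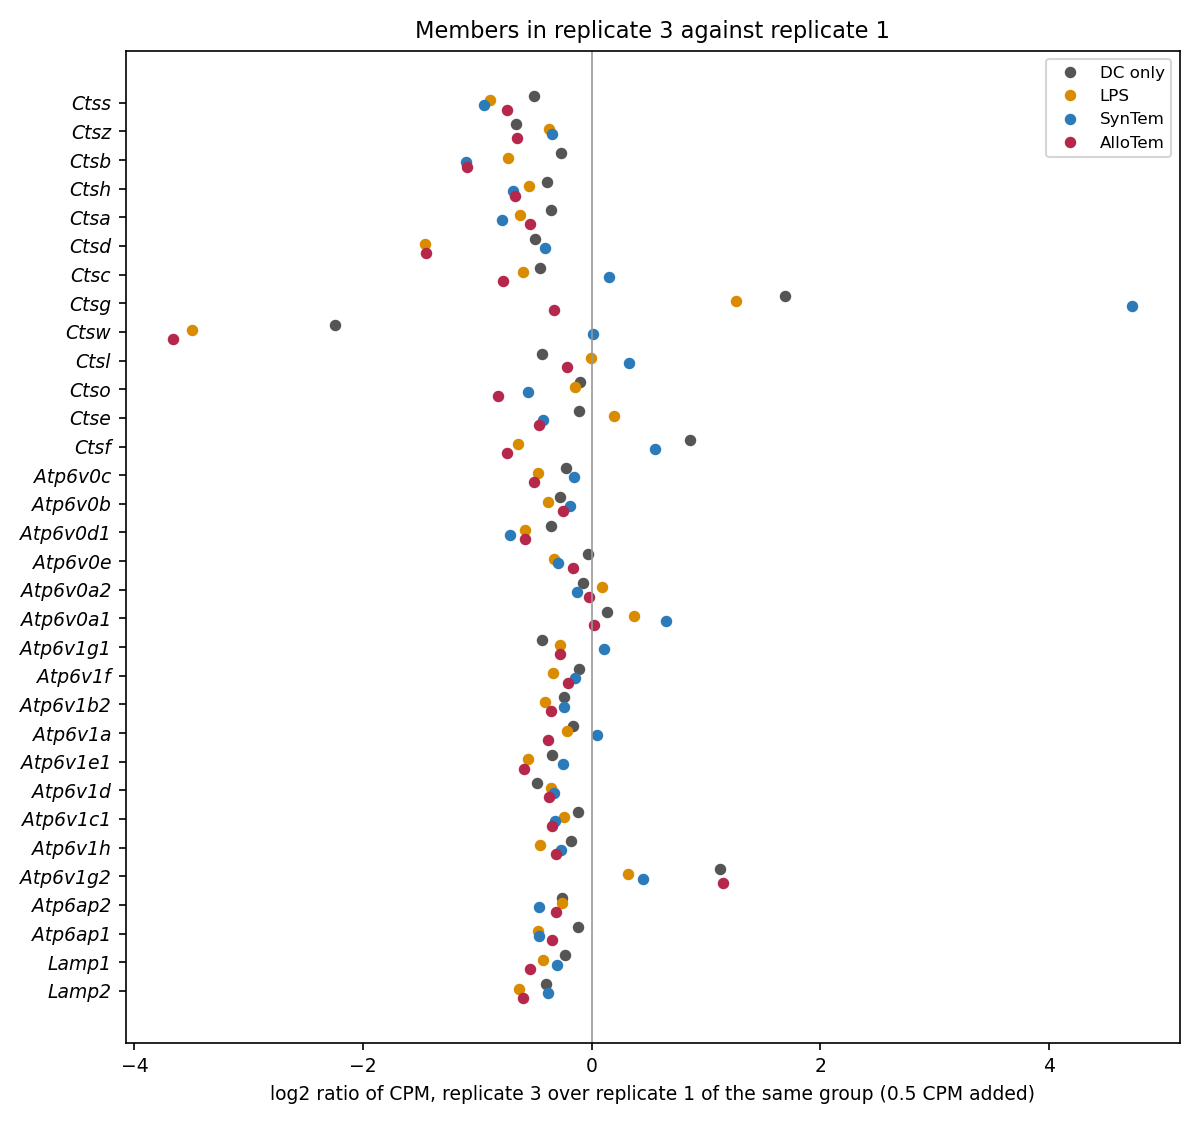
Log2 ratio of CPM in replicate 3 over replicate 1 of the same group, 1 point per group, for the 32 tested genes (0.5 CPM added to each value). Points lie left of 0 in all 4 groups for 21 genes, among them the LAMPs and both accessory genes, and right of 0 for Atp6v0a1 and Atp6v1g2.

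The wider lysosomal pathway was read from 7 lists with 135 genes, 128 of them tested. In AlloTem against DC only 1 rose and 1 fell (edgeR; 1.56% of the 128, against 1.76% of all genes), and in the other 5 comparisons between groups none passed. Rragd, a GTPase that brings mTORC1 signalling to the lysosome, was 2.3, 2.9 and 2.7 CPM in AlloTem and 0.3, 0.6 and 1.0 in DC only (log2 2.06 ± 0.44, edgeR adjusted p = 0.0444). It was also 3.6, 2.2 and 2.2 CPM in SynTem (log2 2.08 ± 0.44 against DC only, edgeR adjusted p = 0.134), so AlloTem and SynTem overlapped. Slc29a3, a nucleoside transporter of the lysosomal membrane, was 109.2, 92.8 and 108.8 CPM in AlloTem and 207.4, 212.8 and 139.0 in DC only (log2 -0.85 ± 0.17, edgeR adjusted p = 0.0362).

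Of the other lysosomal hydrolases none of 40 passed in any comparison between groups by edgeR. In AlloTem against DC only 12 of 40 were positive, against 50.2% of all genes, with a median log2 difference of -0.12. There 9 had an unadjusted p under 0.05 (edgeR; 22.5%, against 12.7% of all genes). None of 15 genes of enzyme sorting, none of 6 tested cathepsin inhibitors and none of 11 tested pump partners passed. The regulators Tfeb and Tfe3, which bind the CLEAR motif, were at 59.5 to 86.8 CPM and 91.6 to 177.1 CPM over the 12 libraries. Tcirg1, the a3 subunit, was at 199.0 to 312.6 CPM with replicate 3 the highest in each group, opposite to most of the 32 genes.

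In each list without a call, the gene with the smallest p was as follows, on the log2 scale. In AlloTem against SynTem these were H2-DMa (0.26), Cst3 (0.32), Slc38a9 (-0.30), Naaa (0.30), Mcoln2 (0.83), Cltc (0.21) and Rogdi (0.32), with edgeR adjusted p of 0.311 or more. In AlloTem against DC only they were H2-DMb2 (0.59), Serpinb1a (1.06), Arsb (-0.51), Vps35 (-0.21) and Dmxl2 (1.59), with edgeR adjusted p of 0.129 or more. Cst3, cystatin C, which inhibits cysteine cathepsins, was 1824, 2504 and 2054 CPM in AlloTem and 1654, 1805 and 1651 in SynTem. In AlloTem against LPS they were H2-DMa (-0.13), Serpinb1a (0.57), Rragb (-0.61), Naaa (0.28), Mcoln2 (0.76), Cltc (0.23) and Ccdc115 (0.17). In LPS against DC only they were H2-Eb1 (0.43), Serpinb9 (1.16), Fnip2 (-0.45), Arsb (-0.33), Slc29a3 (-0.42), Vps35 (-0.14) and Ncoa7 (0.54). Slc29a3 and Arsb, the sulfatase deficient in a mucopolysaccharidosis, were also the lowest-p genes of their lists in SynTem against DC only (-0.52 and -0.50), beside H2-DMa (-0.39), Serpinb6a (0.78), Rragd (2.08), Igf2r (2.11) and Dmxl2 (1.88).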

How the data were processed

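The authors deposited raw counts per Ensembl gene identifier for 12 libraries, whole numbers with no normalization, and a table of batch numbers. Per the submitters' processing notes the genome build is mm10; the sources used here name no aligner, counting tool, strand setting or annotation release. Symbols, exon lengths and overlaps came from GENCODE M21 (GRCm38), matched by identifier for 52080 of 57009 identifiers; the other 4929 held 0.754% of counts.

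Genes were kept by filterByExpr (minimum count 10, minimum total 15), which left 14413, scaled by TMM and fitted with 1 mean per group over all 12 libraries in edgeR 4.0.16 (R 4.3.3, robust quasi-likelihood). P-values were adjusted over all genes of a comparison by the Benjamini-Hochberg method, and the threshold was 0.05. The SE of a log2 fold change is its size over the square root of F. Intervals use the t quantile at the total degrees of freedom of the same test. Levels are TMM-scaled CPM, per kb of exon union where genes are compared. The replicate number is a deposited batch number, so it was taken to pair libraries: deviations from group means correlated with a median of 0.34 in 18 pairs with the same number (14 above 0.1) and -0.30 in 36 others. The main fit has no block. Alternatives were RLE and upper quartile scaling, DESeq2 1.42.0, voom (limma 3.58.1), other filters, only the groups compared, the replicate block, and leaving out libraries. Scripts were tested on simulated data.

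The genes, the pathway and marker lists and the tests were chosen with earlier results of these data known. The rule named the class II cathepsins, LAMPs, Atp6ap1 and Atp6ap2 by level, and per comparison each called gene, the 3 others with the smallest p, and the cathepsin, pump gene and LAMP with the smallest p; in each pathway list it named called genes or the one with the smallest p. Ctsa, Ctsw, Tfeb, Tfe3, Tcirg1, the remaining subunits and the markers were added after their values were seen. Promoter sequences are from RefSeq (GRCm38.p6).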

Additional observations from a re-analysis of the deposited data

How the results depend on the processing

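The count of the 32 genes called in AlloTem against DC only, 2, was the one most open to choices: it was 3 with DESeq2, 1 with RLE or upper quartile scaling, 0 with voom, with no filter or with only the groups compared, and 0 to 1 when single libraries were left out. It stayed at 2 with the replicate block (adjusted p = 0.0267 for Ctse and 0.0395 for Atp6v0a2, edgeR), which changed no other call of the 32. Chosen after seeing the data, it was 0 without DC only 2 and SynTem 2, 1 with the block without them, and 0 without LPS 1, SynTem 1 and AlloTem 1. DESeq2 called 2 in AlloTem against SynTem, 1 in AlloTem against LPS and 1 in AlloTem and LPS against DC only and SynTem, where edgeR called none. For the batch number the count of 0 became 13 with DESeq2, 2 with no filter and 0 to 17 when single libraries were left out (17 without SynTem 2, 7 without DC only 1 or DC only 2). It was 19 without DC only 2 and SynTem 2, a choice made after seeing the data that favours a larger count. The share of all genes called was 16.3% with DESeq2 and 20.9% without DC only 2 and SynTem 2. This share is not given here for the fits with no filter or with single libraries left out. Their counts therefore do not set the 32 genes apart from all genes. The cause was not tested.

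Near-zero differences of the LAMPs changed sign, with no call on either side. Leaving out single libraries moved Lamp1 between -0.17 and 0.16 (AlloTem against DC only), -0.17 and 0.23 (AlloTem against LPS), -0.31 and 0.0762 (AlloTem against SynTem) and -0.0218 and 0.29 (SynTem against DC only). It moved Lamp2 between -0.17 and 0.0521 (AlloTem and LPS against DC only and SynTem) and -0.23 and 0.0938 (LPS against DC only), and Ctsg between -0.53 and 3.33 (SynTem against DC only). Without LPS 1, SynTem 1 and AlloTem 1, Lamp1 was -0.167 in AlloTem and -0.0217 in SynTem, both against DC only. Without DC only 2 and SynTem 2, Lamp2 in LPS against DC only was 0.075, and 0.0619 with the block. With 3 libraries a group, changes under about the printed intervals were not detectable.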
